A study of Mus musculus with 14 samples.

Results

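Whole kidneys of VE-PTPiKO mice were compared 5 h after ischemia-reperfusion (IR) injury and 5 h after sham surgery, with 3 bulk RNA-seq libraries in each group. These 6 libraries are 6 of the 14 samples of the series and 6 of its 12 bulk libraries, and they were taken by their genotype and surgery labels without use of any measured value. All mice were 9 weeks old. VE-PTPiKO is the submitters' name for a genotype that targets VE-PTP, the receptor phosphatase encoded by Ptprb, and both groups carry it, so the comparison is between surgeries within 1 genotype. The Cre driver, the time and agent of induction, the strain and the ischemia time of the bulk samples are not given in the sources used here, nor is it said whether each library is 1 animal, so p-values reflect only how much the libraries of a group vary, which may be technical. The remaining bulk libraries are 9-week-old control kidneys, 3 sham and 3 IR, taken at the same time. They appear below only where the difference between genotypes was tested.

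Blood flow that stops and returns injures the tubule, the segment of the nephron that recovers filtered solutes. Proximal tubule cells burn fatty acids and make glucose, and injured tubule cells switch on stress, repair and inflammatory genes within hours. VE-PTP removes phosphate from the endothelial receptor Tie2 (Tek), whose ligands are the angiopoietins, and a kidney without VE-PTP is studied because more active Tie2 is held to keep vessels tight.

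The libraries, numbered below by their replicate, held 15427887 to 21296392 reads in genes. The 6 libraries did not separate by surgery alone. IR library 3 and, among sham kidneys, library 2 held the largest shares of Malat1, a nuclear-retained RNA, at 1.962% and 1.152% of reads, against 0.334% to 0.564% in the other 4 libraries. In IR library 3 a gene's signed distance from its group mean was larger for longer transcripts (Spearman's rho 0.61 across 11555 genes, which are not independent replicates), whereas in IR libraries 1 and 2 it was smaller (−0.57 and −0.45). The sham libraries differed as well, with rho of −0.51, 0.40 and 0.27 in sham libraries 1, 2 and 3. The log2 change, IR over sham, had a rho of −0.27 with transcript length. On the first component, which held 53.2% of the variance, IR libraries 1 and 2 stood at 35.1 and 32 and IR library 3 at −4.5, beside sham library 1 at −3.1. IR library 3 stood at −38 on the second component, at the far end from sham library 1 at 22.7. Counts of the gene lists are therefore given with all libraries and without IR library 3, and the part of IR library 3 in each result was otherwise not tested. Each distance is from the mean of the library's own group, so the signs cannot be set against each other between sham and IR. Whether the fit without IR library 3 alone is free of the length trend was not tested. Some counts are therefore also given without sham library 2 and IR library 3.

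**Figure D1:**
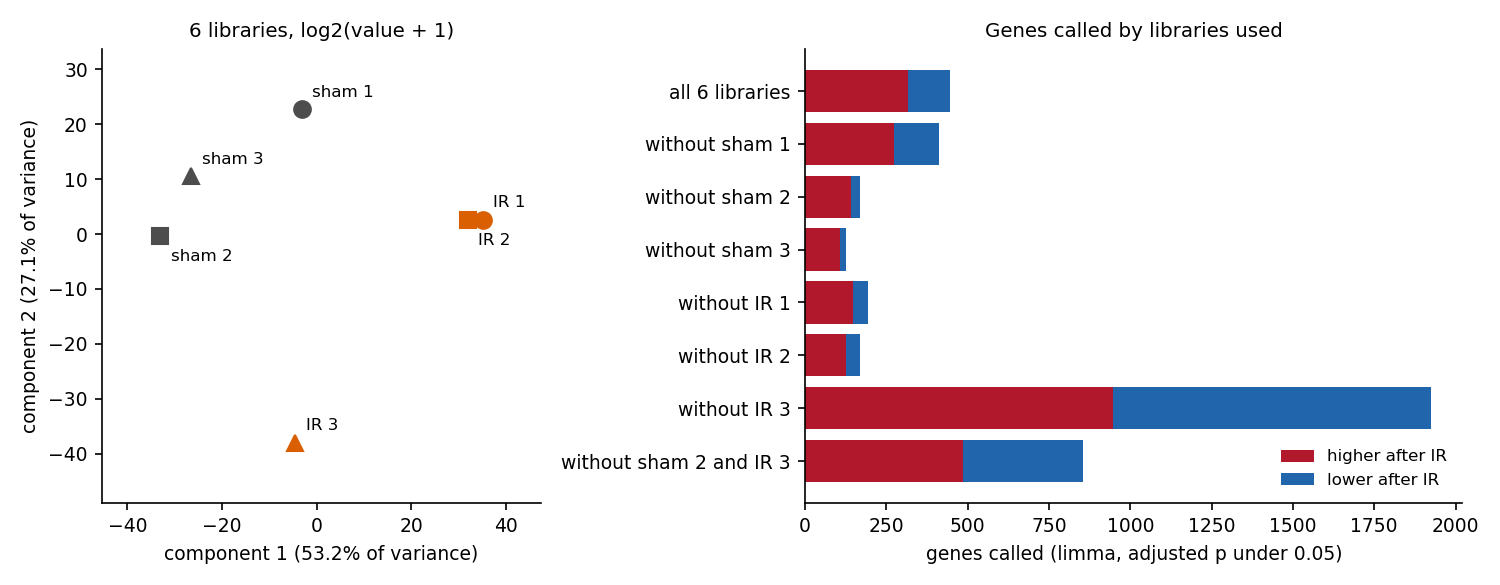
Left, the 6 libraries on the first and second principal components of log2(value + 1), with sham in grey and IR in orange and replicates 1, 2 and 3 as circle, square and triangle. Right, the number of genes called higher (red) and lower (blue) after IR with all libraries and with libraries left out; 445 genes were called with all 6 and 1925 without IR library 3.

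Ptprb, the targeted gene (mm10 chr10:116275523-116389535), was read in every VE-PTPiKO library. Its normalised read count, the gene's reads divided by the size factor of its library, was 2061, 2828 and 3032 in sham and 1312, 1669 and 2099 in IR kidneys. The ranges of the groups overlapped, by 1 IR library, and the log2 difference of −0.65 did not pass (limma adjusted p = 0.167; 0.0225 without IR library 3). A count over the whole gene does not report on a deleted part. Among the other receptors and ligands, Tek stood at 1128, 1201 and 1189.8 in sham and 1010.0, 1394 and 1095 in IR kidneys, and Tie1, the orphan relative that forms complexes with Tie2, at 929, 1034 and 1088 in sham and 836, 949.7 and 941 in IR kidneys. Angpt1, the activating ligand, was measured at 369.5, 324 and 299.5 in sham and 306, 357 and 258 in IR kidneys, and Angpt2, the ligand that endothelium releases, at 405, 394 and 322 in sham and 449, 396 and 392 in IR kidneys. The sham and IR ranges of these 4 genes overlapped, and their log2 differences ran from −0.16 for Tie1 to 0.15 for Angpt2. Of 10 genes of the angiopoietin-Tie pathway none was called, against 2.71% of all 16401 genes tested, and their median log2 difference was −0.20 against −0.01 over all genes. Without IR library 3, 2 of the 10 were lower, against 5.99% of all genes, namely Ptprb and Angptl4, an inhibitor of lipoprotein lipase named here after its values were seen. Angptl4 read 12471, 14024 and 15292 in sham and 9884, 8048 and 7971 in IR kidneys, and the groups did not overlap. Its log2 difference of −0.69 had an adjusted p of 0.0509 by limma (0.0253 without IR library 3), 0.0494 by edgeR and 0.000991 by DESeq2. With sham library 2 left out as well as IR library 3, 0 of the 10 were lower (limma adjusted p = 0.0511 for Angptl4).

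Endothelial identity genes were likewise not called, 0 of 22 with a median of −0.08. Over all genes tested 2.71% were called, so a count of 0 in a list of this size is near the background. Pecam1, an adhesion molecule of endothelial junctions, read 1967, 1669.8 and 1879 in sham and 2149, 2145 and 2159.5 in IR kidneys. Those groups did not overlap, and the difference of 0.23 had an adjusted p of 0.43 by limma. Cdh5, the cadherin that binds VE-PTP at those junctions, read 1095, 1199.9 and 1361 in sham and 1348, 1317 and 1761 in IR kidneys, with overlapping groups. Leaving out IR library 3, 3 of the 22 genes passed, all lower, against 5.99% of all genes lower in that fit. Among them were Eng, a co-receptor of the TGF-beta family (adjusted p = 0.0113 by limma), and Flt1, a VEGF receptor (0.0409). With sham library 2 left out as well, 1 of the 22 was lower, Eng (adjusted p = 0.0342 by limma, and 0.108 for Flt1), against 2.27% of all genes. In bulk tissue, fewer cells of a type and less RNA per cell cannot be told apart.

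Across all genes, 315 of 16401 rose (1.92%) and 130 fell (0.793%) after IR (limma on log2(value + 1), Benjamini-Hochberg adjusted p under 0.05, n = 3 per group). The median fold of the genes that rose was 2.45, and 226 of them exceeded 2-fold, 60 exceeded 4-fold and 16 exceeded 8-fold. Among the genes that fell the median fold was 2.14, with 79 over 2-fold and 16 over 4-fold. All 445 had sham and IR ranges that did not overlap, which was also true of 10.6% of all genes tested in the upward and 10% in the downward direction. The 315 genes that rose took 1.22% to 1.4% of reads in sham libraries and 3.01% to 3.22% in IR libraries. The 130 that fell took 3.02% to 4.02% in sham and 1.49% to 1.56% in IR libraries. IR library 3 was the lowest of the IR libraries for 160 of the 315 genes and the highest for 82. Without it, 946 genes rose (5.79% of 16334) and 979 fell (5.99%), so that the calls were about evenly split, and 314 of the 315 and all 130 kept their call. On the recovered reads DESeq2 called 622 higher (4.39% of 14173) and 391 lower (2.76%), and edgeR 330 (2.01%) and 126 (0.768%). Without sham library 2 and IR library 3, the libraries highest in Malat1, 484 rose (2.97% of 16273) and 369 fell (2.27%). Of the 315 and 130 genes, 98 and 18 were called whichever single library was left out. The list counts below are to be read against the shares of all genes. These were 1.92% higher and 0.793% lower with all libraries, and 5.79% and 5.99% without IR library 3.

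**Figure D2:**
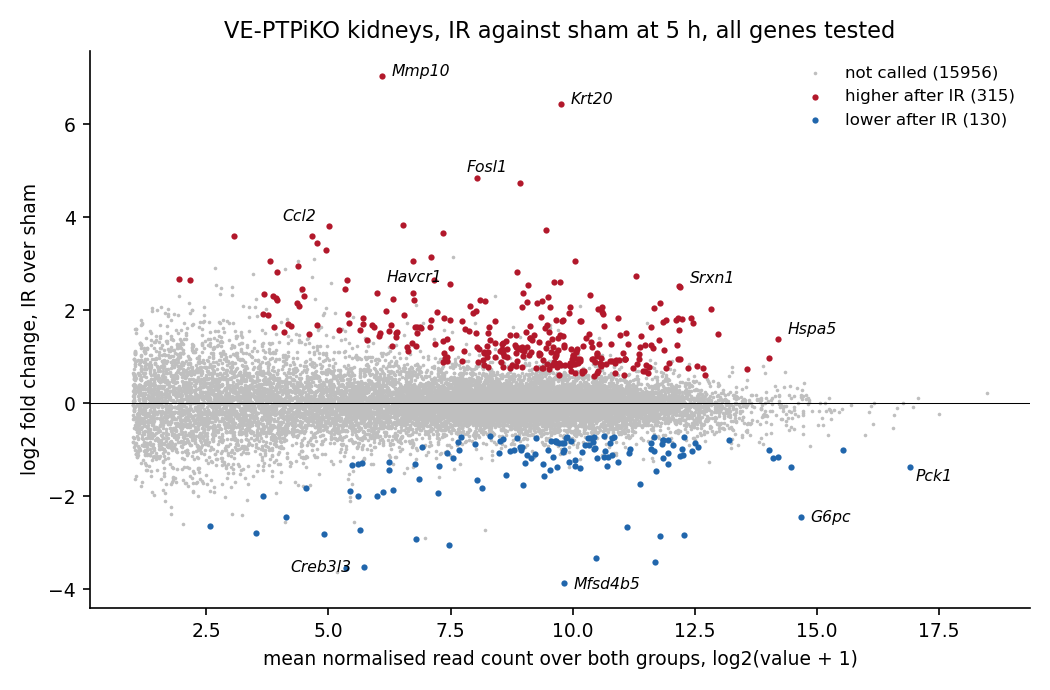
Each of the 16401 genes tested, by its mean level over both groups (x, log2 of the mean normalised read count plus 1) and its log2 change, IR over sham (y); 315 genes called higher are red and 130 called lower are blue. Mmp10 and Krt20 stand at the top and Mfsd4b5 at the bottom.

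Of 28 tubular injury genes 14 rose and none fell, against 1.92% of all genes higher, with a median log2 change of 1.32 over the list. Krt20 (mm10 chr11:99428403-99438150), a keratin of injured tubule cells, read 14.8, 12.1 and 36 in sham and 1580.3, 1669 and 1890.1 in IR kidneys. This was a rise of 86.6-fold (log2 change 6.44 ± 0.35 SE, limma adjusted p = 7.74e-05), and the lowest IR library stood far above the highest sham library. Havcr1 (mm10 chr11:46735080-46779578), which encodes the injury marker KIM-1, read 57.7, 39.2 and 49.4 in sham and 302, 174 and 457 in IR kidneys. It rose 5.89-fold (log2 change 2.56 ± 0.34 SE, limma adjusted p = 0.00568), and IR library 3 was the highest of its group. The keratin gene Krt8 read 1558, 1218 and 1316 in sham and 8775, 9290.1 and 5781 in IR kidneys and rose 5.73-fold (log2 change 2.52 ± 0.20 SE, limma adjusted p = 0.000434), with IR library 3 the lowest of its group. Lcn2, which encodes the iron-carrier protein NGAL, read 175, 111 and 165 in sham and 681, 358 and 393 in IR kidneys. Its rise of 3.09-fold (limma adjusted p = 0.0167) lost its call without sham library 2 or 3 (up to 0.0771). Spp1, osteopontin, went from 13064, 9676 and 11129.9 to 24611, 20794 and 20821.

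The other members called were Plaur, the urokinase receptor, at 4.56-fold, Gprc5a at 4.58-fold, Tnfrsf12a, the receptor of TWEAK, at 4.46-fold, Lgals3 at 3.58-fold, Gdf15 at 3.44-fold, the annexins Anxa2 at 2.87-fold and Anxa1 at 2.56-fold, Krt18 at 2.35-fold and Vim at 2.18-fold. The calls of Krt18, Spp1 and Lgals3 ended without sham library 2, sham library 3, IR library 1 or IR library 2 (adjusted p up to 0.113 by limma), and those of Anxa1 and Vim without sham library 3 (0.0521 and 0.0552). Members not called included Sox9, a transcription factor of regenerating tubules, at 18.1, 7.46 and 35 in sham and 39.4, 105 and 33.5 in IR kidneys. Its ranges overlapped. Cdkn1a, the cell cycle inhibitor p21, read 1417, 761 and 1216 in sham and 1386, 2086 and 1438 in IR kidneys, again with overlap. When IR library 3 was dropped, 20 of the 28 rose, against 5.79% of all genes.

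**Figure D3:**
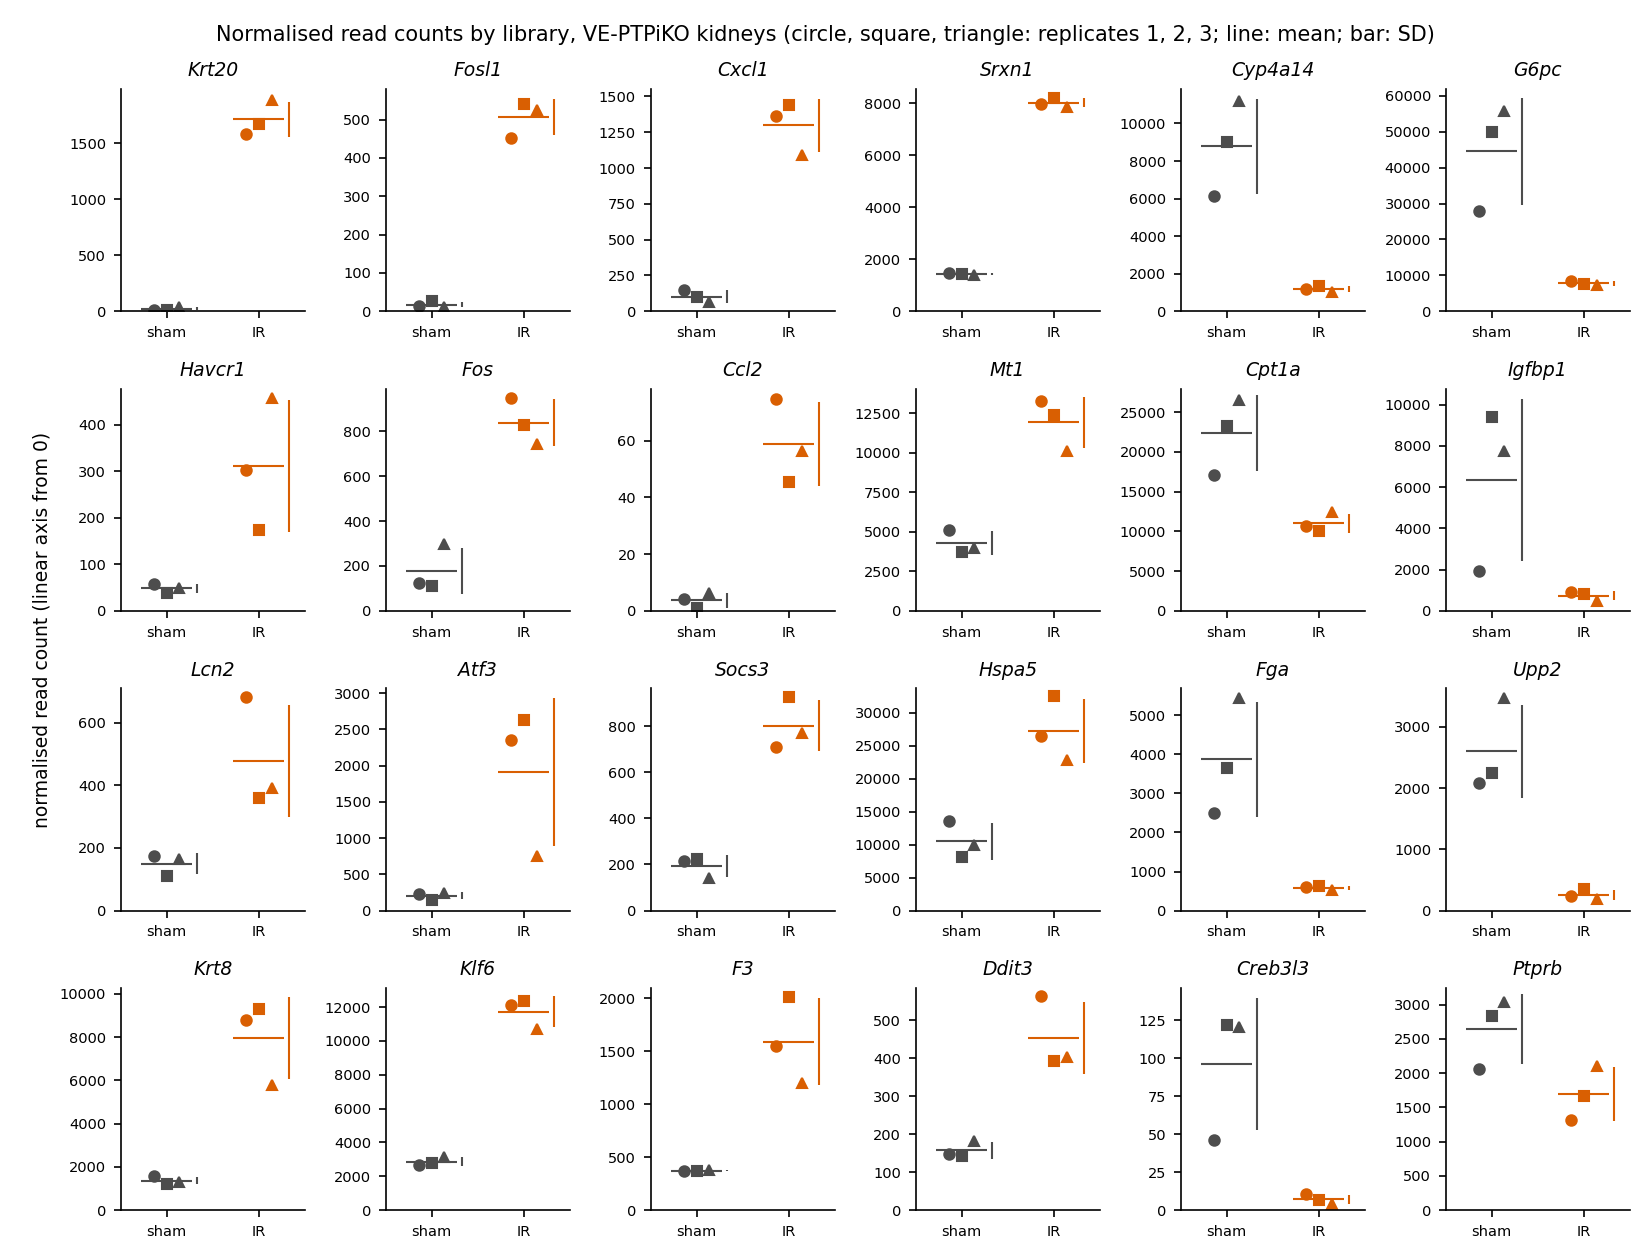
Normalised read counts of 24 genes in each library, on linear axes from 0, with sham in grey and IR in orange, replicates 1, 2 and 3 as circle, square and triangle, the line the mean and the bar the SD of 3 libraries. The 4 columns on the left hold genes that rose and the 2 on the right genes that fell, except Ptprb, whose groups overlap.

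Immediate early genes, which encode transcription factors made within minutes of a stimulus, were higher in IR than in sham kidneys at 5 h. Of 12 AP-1 genes 8 rose (median log2 change 1.25), and of 19 EGR, NR4A, IER and KLF genes 10 rose (0.92), with none lower in either list. Over all genes 1.92% rose. Fosl1, which encodes the AP-1 subunit FRA-1, read 14, 26.1 and 12.4 in sham and 453, 539 and 526 in IR kidneys and rose 28.8-fold (log2 change 4.85 ± 0.29 SE, limma adjusted p = 0.000108). It shares 57.2% of its length with Ccdc85b on the opposite strand, and since the strand setting of the counting is not given, reads of the pair cannot be told apart. Fos, the founding member, read 124, 112 and 297 in sham and 946, 828 and 741 in IR kidneys and rose 5.17-fold (log2 change 2.37 ± 0.33 SE, limma adjusted p = 0.00742), with sham library 3 the highest of the sham libraries. Fosb read 101, 9.32 and 28.8 in sham and 929, 1374 and 467 in IR kidneys and rose 26.7-fold (log2 change 4.74 ± 0.72 SE, limma adjusted p = 0.0109). Sham library 1 stood well above the other sham libraries. The fold was 48.0 without sham library 1 and 15.3 without sham library 2, and its call ended without sham library 3 or IR library 2 (adjusted p up to 0.0689 by limma). Atf3, a stress-induced repressor, read 228, 146 and 239.8 in sham and 2357, 2627 and 746 in IR kidneys and rose 8.30-fold (log2 change 3.05 ± 0.43 SE, limma adjusted p = 0.00781). IR library 3 stood far below the other IR libraries and above all sham libraries.

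Egr2, a zinc finger factor, read 9.90, 8.39 and 13.4 in sham and 172, 101 and 243 in IR kidneys and rose 14.3-fold (log2 change 3.84 ± 0.36 SE, limma adjusted p = 0.00106). Klf6, another zinc finger factor, read 2678, 2766 and 3165 in sham and 12128, 12369.8 and 10691 in IR kidneys and rose 4.09-fold (log2 change 2.03 ± 0.13 SE, limma adjusted p = 0.000237). Those IR libraries lay close together and far from sham. Csrnp1 at 3.39-fold, Junb at 3.41-fold, Maff at 2.75-fold, Btg2 at 2.42-fold and Ier5 at 2.38-fold also rose whichever library was left out. Of the products that switch the MAP kinase cascade off, 5 of 16 rose, against 1.92% of all genes. The phosphatase genes Dusp5 and Dusp14 rose 6.06-fold and 5.85-fold (limma adjusted p = 0.000395 and 0.000606), and Dusp10 and Spry2 rose 2.94-fold and 2.18-fold. Dusp2, at 5.17-fold, lost its call without sham library 3, IR library 1 or IR library 2 (up to 0.0926). None of 10 mRNA decay regulators was called, a count near the 2.71% of all genes called. Their best known member, Zfp36, which marks cytokine transcripts for decay, read 898, 1551 and 1683 in sham and 1981, 2245 and 2705 in IR kidneys. Its groups did not overlap, and the limma adjusted p was 0.143. In the fit without IR library 3, the counts were 9 of 12, 12 of 19, 5 of 16 and none higher with 2 lower of 10, with 1 lower among the 16 as well.

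The windows around the start sites were searched for the letters that AP-1, CREB and serum response factor are known to bind. RefSeq windows on GRCm38.p6, 300 bases from 250 before to 50 after a start, were found for 12441 of the 16401 genes tested and searched on both strands. The AP-1 letters TGANTCA stood in a window of 882 genes (7.1%), of 47 of the 243 genes that rose (19.3%) and of 7 of the 103 that fell (6.8%). They stood in none of 11 AP-1 genes with a window and in 1 of 12 EGR, NR4A, IER and KLF genes (8.3%), Csrnp1. The cyclic AMP response element TGACGTCA stood in 408 genes (3.3%), in 11 of the 243 (4.5%) and in 1 of the 103 (1.0%). It was in 1 of the 11 AP-1 genes, Maff, and in 1 of the 12 of the other list, Btg2. The CArG box of serum response factor was in 191 genes (1.5%), in 7 of the 243 (2.9%) and in none of the 103. None of the 11 AP-1 genes held it, and 2 of the 12 did, Egr2 and Srf. No test was made of these shares, and a match is a description of the letters only. The windows below show 1 gene that rose for each motif, with the match in capitals, 5′ to 3′ on the gene's strand. Csrnp1 had 4 start windows, Egr2 had 5 and Btg2 had 1, and the window shown was picked because it holds the match. The start named below is that of the window shown, and a gene with several windows has other starts. In Csrnp1 (chr9:119982974-119983273, minus strand) 2 AP-1 matches begin 102 and 14 bases before the start. In Egr2 (chr10:67537316-67537615, plus strand) the CArG box begins 72 bases before it, and in Btg2 (chr1:134079106-134079405, minus strand) the cyclic AMP element begins 166 bases before it.
Csrnp1: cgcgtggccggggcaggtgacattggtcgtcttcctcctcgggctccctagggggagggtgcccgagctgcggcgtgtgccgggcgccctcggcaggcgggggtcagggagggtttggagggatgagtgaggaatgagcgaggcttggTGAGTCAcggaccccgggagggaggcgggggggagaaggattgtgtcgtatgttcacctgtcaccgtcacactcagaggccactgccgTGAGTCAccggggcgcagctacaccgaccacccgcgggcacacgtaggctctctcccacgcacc
Egr2: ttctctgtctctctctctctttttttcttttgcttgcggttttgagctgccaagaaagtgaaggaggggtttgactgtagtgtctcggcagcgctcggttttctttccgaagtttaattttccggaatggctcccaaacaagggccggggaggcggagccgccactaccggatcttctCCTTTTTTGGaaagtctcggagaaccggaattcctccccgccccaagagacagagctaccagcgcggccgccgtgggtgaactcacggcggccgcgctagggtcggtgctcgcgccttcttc
Btg2: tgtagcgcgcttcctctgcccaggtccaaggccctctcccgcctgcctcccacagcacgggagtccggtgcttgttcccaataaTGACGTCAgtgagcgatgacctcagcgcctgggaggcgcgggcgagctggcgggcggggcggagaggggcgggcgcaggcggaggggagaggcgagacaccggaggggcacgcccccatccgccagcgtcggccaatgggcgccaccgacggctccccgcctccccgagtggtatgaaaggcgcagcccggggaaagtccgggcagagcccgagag

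A minority of cytokine and chemokine genes rose. Of 14 chemokines 3 rose, of 20 IL-6 and IL-1 family members 4, and of 19 NF-kB and cytokine feedback genes 8, with none lower and median log2 changes of 0.76, 0.57 and 0.64. The share of all genes that rose was 1.92%. Cxcl1, which draws neutrophils, read 149, 97.9 and 61.8 in sham and 1365, 1438 and 1090.5 in IR kidneys and rose 13.2-fold (log2 change 3.72 ± 0.29 SE, limma adjusted p = 0.000434). Cxcl2, its relative, read 0.825, 6.53 and 3.09 in sham and 49.8, 41.1 and 45.4 in IR kidneys and rose 12.1-fold (log2 change 3.60 ± 0.51 SE, limma adjusted p = 0.00798). Ccl2, which draws monocytes, read 4.12, 0.932 and 6.18 in sham and 74.7, 45.5 and 56.3 in IR kidneys and rose 14.2-fold (log2 change 3.82 ± 0.51 SE, limma adjusted p = 0.00599). No sham library of these 3 genes came near its IR libraries. At such low counts the log2 change depends on the pseudocount. With 5 in place of 1 it was 2.63 for Cxcl2 and 2.89 for Ccl2.

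Il6, the cytokine that starts the acute phase response, read 0, 0.932 and 0 in sham and 19.7, 9.75 and 14.1 in IR kidneys (limma adjusted p = 0.00983). It had 1 read in all sham libraries together, so no fold is given. Its call ended without sham library 3 or IR library 1 (up to 0.0616). Lif, of the same family, read 4.12, 2.80 and 4.12 in sham and 46.7, 31.4 and 29.2 in IR kidneys and rose 7.77-fold (log2 change 2.96 ± 0.37 SE, limma adjusted p = 0.00442), and its log2 change was 2.21 with a pseudocount of 5. Clcf1 rose 4.69-fold (limma adjusted p = 0.00206). Il11, at 4.95, 1.86 and 3.09 in sham and 23.8, 15.2 and 21.6 in IR kidneys, rose 5.07-fold, or 1.6 on the log2 scale with a pseudocount of 5, and lost its call without sham library 2 or 3 or IR library 1 or 2 (up to 0.124) or without the 2 libraries highest in Malat1 (0.0593). Socs3, the inhibitor of signalling by this family, read 214, 226 and 140.0 in sham and 709, 925 and 770.3 in IR kidneys and rose 4.19-fold (log2 change 2.07 ± 0.21 SE, limma adjusted p = 0.0016). Its relative Socs2 rose 3.02-fold, and Tnfaip3, the NF-kB inhibitor A20, rose 2.33-fold. Nfkbiz, Nfkb2, Rela, Relb and Bcl3 also rose, between 1.56-fold and 3.91-fold, and each lost its call when at least 1 of the other 5 libraries than IR library 3 was left out (adjusted p up to 0.176 for Rela). With IR library 3 left out, the counts were 4 of 14, 6 of 20 and 10 of 19.

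Few markers of white blood cells were called beside these transcripts, where 2.71% of all genes tested were called, so that a count of 0 in lists of this size is near the background. None of 15 neutrophil markers was called, and their summed normalised count was 254 to 289 in sham and 289 to 527 in IR kidneys. S100a8, an abundant neutrophil protein gene, read 42.9, 43.8 and 26.8 in sham and 80.9, 89.9 and 41.1 in IR kidneys, and Ly6g, a defining surface marker, read 0, 0.932 and 2.06 in sham and 2.07, 0 and 1.08 in IR kidneys. Both overlapped between groups. Of 18 monocyte and macrophage markers 2 rose, and the list summed to 6352 to 6788 in sham and 7722 to 9161 in IR. Cd68, a lysosomal protein gene of macrophages, read 22.3, 39.2 and 41.2 in sham and 159, 173 and 200.2 in IR kidneys and rose 5.22-fold (log2 change 2.38 ± 0.28 SE, limma adjusted p = 0.00308). Cd14, the co-receptor for bacterial lipid, rose 1.95-fold (limma adjusted p = 0.0418) and lost its call without any 1 of sham libraries 1, 2 and 3 and IR libraries 1 and 2 (up to 0.179). Adgre1, a macrophage surface marker, read 68.5, 41 and 40.1 in sham and 56, 62.8 and 75.7 in IR kidneys, and Csf1r, a receptor that defines the lineage, read 1176, 1194 and 1292 in sham and 1069, 1044 and 1288 in IR kidneys. Those ranges overlapped as well. Lymphocyte markers were called in 0 of 14, with sums of 54.1 to 68.5 and 40.1 to 94.4. No marker of these 3 lists was at 0 in all 6 libraries. Without IR library 3, 3 neutrophil and 3 monocyte and macrophage markers passed, all higher, and no lymphocyte marker, against 5.79% of all genes higher. The part of these cells in the cytokine values was not tested.

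Red cell and platelet genes were higher in IR libraries without passing the test. The 9 genes tested summed to 675 to 893 in sham and to 953 to 2444 in IR kidneys, with a median log2 change of 1.29. Hba-a1, alpha globin, read 451, 274 and 290.2 in sham and 1350.1, 1629.7 and 465 in IR kidneys (limma adjusted p = 0.0962; 0.000599 without IR library 3). The groups did not overlap, and IR library 3 lay nearest to sham. Without it, 3 of the 9 were called higher, Hba-a1 among them.

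Some genes that act on matrix and clot passed the test. Of 17 matrix proteases and inhibitors 4 rose (median log2 change 0.40), and 3 of 18 genes of clotting and clot lysis rose and 2 fell (0.19). Over all genes 1.92% rose and 0.793% fell. Mmp10 (mm10 chr9:7502352-7510240), a stromelysin, was at 0 in all 3 sham libraries and at 169, 139.7 and 95.2 in IR libraries, from 163, 129 and 88 reads. Against a floor of 3 reads per library it was at least 48.3-fold higher, and at least 42.2-fold higher without IR library 1 (limma adjusted p = 7.74e-05 with all libraries). Adamts1 and Adamts4, aggrecan-cutting proteases, rose 3.58-fold (log2 change 1.84 ± 0.14 SE, limma adjusted p = 0.000395) and 8.78-fold (log2 change 3.14 ± 0.43 SE, limma adjusted p = 0.00655). The log2 change of Adamts4 was 2.48 without sham library 2 and IR library 3, the libraries highest in Malat1. Mmp12, at 9.07, 6.53 and 8.23 in sham and 33.2, 30.3 and 19.5 in IR kidneys, rose 3.15-fold but lost its call without any 1 of the 5 libraries other than IR library 3 (up to 0.207) and without the filter on low values (0.0582).

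F3, tissue factor, which starts clotting, read 374, 366 and 376 in sham and 1553, 2017 and 1199.8 in IR kidneys and rose 4.17-fold (log2 change 2.06 ± 0.19 SE, limma adjusted p = 0.00105). Its sham libraries were nearly equal. Plaur rose as well, whereas Fga and Fgg, which encode fibrinogen chains, fell. Fga read 2509.6, 3653 and 5449 in sham and 601, 626 and 524 in IR kidneys, lower by 6.32-fold (log2 change −2.66 ± 0.25 SE, limma adjusted p = 0.00106), and Fgg read 491, 338 and 491 in sham and 154, 113 and 102 in IR kidneys, lower by 3.56-fold (log2 change −1.83 ± 0.23 SE, limma adjusted p = 0.00414). Of 17 genes of endothelial activation and adhesion 4 rose (median 0.46), Adamts4, Fgl2, Icam1 and Apln. Fgl2, a prothrombinase of activated cells, rose 4.53-fold (limma adjusted p = 0.0017). Icam1, which holds leukocytes to endothelium, read 839, 649.8 and 574 in sham and 1360.5, 1569 and 1193 in IR kidneys and rose 2.01-fold. Apln, the apelin precursor, rose 2.28-fold. Icam1 lost its call without sham library 2 or 3 or IR library 1 or 2, and Apln also without sham library 1 (up to 0.116 and 0.15). Selp, P-selectin, was not called at 0, 0.932 and 2.06 in sham and 6.22, 9.75 and 14.1 in IR kidneys (limma adjusted p = 0.0618), nor was Vcam1 at 346, 367 and 297 in sham and 529, 441 and 425 in IR kidneys, though neither pair of groups overlapped. When IR library 3 was dropped, the counts were 5 of 17, 7 higher and 2 lower of 18, and 5 of 17. Of 12 EGF receptor ligands and receptors 1 rose, Hbegf, from 702, 579 and 654 to 2606, 3125 and 1792, a rise of 3.80-fold (log2 change 1.92 ± 0.20 SE, limma adjusted p = 0.00181). Egf, made in abundance by the distal nephron, read 33262, 40933 and 42222 in sham and 20013, 31694 and 33223 in IR kidneys and was not called. Without IR library 3, 1 of the 12 was higher and 2 were lower.

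Some genes of the chaperone and stress programmes rose. Of 22 heat shock genes and co-chaperones 6 rose, against 1.92% of all genes, and all 22 had log2 changes above 0, with a median of 0.68. Hspa1a, inducible HSP70, read 186, 172 and 222 in sham and 479, 452 and 331 in IR kidneys and rose 2.15-fold (log2 change 1.11 ± 0.19 SE, limma adjusted p = 0.0187). Its near-identical copy Hspa1b read 429.7, 323 and 425 in sham and 881, 779 and 469.5 in IR kidneys and was not called, and reads shared by the copies may be split between them. Hspb1, Hsp90aa1, Cryab, Bag3 and Hsph1 rose 2.54-fold, 1.94-fold, 1.90-fold, 1.81-fold and 1.81-fold. All 6 calls ended without sham library 2 or 3 or IR library 1 or 2, and those of Hspa1a and Bag3 also without sham library 1 (adjusted p up to 0.221 by limma, for Hsp90aa1), and those of Bag3 and Cryab also without the 2 libraries highest in Malat1 (0.0509 and 0.0543). In the fit without IR library 3, 15 of 22 rose, and with sham library 2 left out as well 8 of 22 rose. Hspa8, the constitutive HSP70, read 4486, 2468 and 2686 in sham and 6624, 6863 and 2497 in IR kidneys and was not called, with IR library 3 inside the sham range. The heat shock letters GAANNTTC stood in a start window of 11 of the 17 genes of the list with one (64.7%), of 910 of all 12441 genes (7.3%), and of 22 of the 243 genes that rose (9.1%). The window of Hspa1a (chr17:34972107-34972406, minus strand) has its match, in capitals, beginning 104 bases before the start.
Hspa1a: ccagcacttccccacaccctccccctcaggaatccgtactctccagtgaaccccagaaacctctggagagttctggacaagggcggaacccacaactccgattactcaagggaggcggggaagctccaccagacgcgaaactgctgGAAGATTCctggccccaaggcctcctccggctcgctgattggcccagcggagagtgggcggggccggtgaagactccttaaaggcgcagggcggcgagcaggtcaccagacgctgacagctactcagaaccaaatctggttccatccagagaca

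Of 20 genes of the ER chaperones and unfolded protein response 4 rose, against 1.92% of all genes, with a median log2 change of 0.54. Hspa5, the ER chaperone BiP, read 13584, 8068 and 9967 in sham and 26549, 32493 and 22827 in IR kidneys and rose 2.62-fold (log2 change 1.39 ± 0.22 SE, limma adjusted p = 0.0121). Sdf2l1, Creld2 and the transcription factor Xbp1 rose 2.93-fold, 2.25-fold and 2.21-fold. These 4 calls ended without sham library 2 or 3 or IR library 1 or 2 (adjusted p up to 0.176 by limma). Of 22 genes of the integrated stress response 3 rose and 2 fell. Ddit3, which encodes CHOP, read 148, 142 and 183 in sham and 564, 393 and 405 in IR kidneys and rose 2.84-fold (log2 change 1.51 ± 0.20 SE, limma adjusted p = 0.00568). Ppp1r15a, GADD34, which reverses the translation block, rose 2.64-fold and Atf4, the factor at the centre of the response, 1.93-fold. Sesn2 and Psat1, both known as targets of ATF4, fell 2.74-fold and 1.79-fold. The letters TGATGNAA, bound by ATF4 with its partners, stood in a window of 7 of the 20 genes of this list with one (35.0%), against 366 of 12441 genes (2.9%). Those 7 were Asns, Chac1, Fgf21, Nupr1, Slc7a11, Trib3 and Vldlr, and none of them was called. Among all genes called, the letters stood in 15 of the 243 that rose (6.2%) and 4 of the 103 that fell (3.9%). Atf4, Sesn2 and Psat1 lost their calls without sham library 2 or 3 or IR library 1 or 2, and Psat1 also without sham library 1 (up to 0.189). None of 20 cytosolic aminoacyl-tRNA synthetases was called (median 0.17). With IR library 3 left out, the counts were 13 of 20, 7 higher and 2 lower of 22, and 1 lower of 20.

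Of 22 p53 and DNA damage genes 5 rose, against 1.92% of all genes. Pmaip1, the death factor NOXA, and Plk3, a stress kinase, rose 2.53-fold and 2.38-fold (limma adjusted p = 0.00489 and 0.00205), beside Btg2, Mdm2 at 1.80-fold and Gadd45a at 2.50-fold. Mdm2 lost its call without sham library 3 (0.0596) and Gadd45a without sham library 2 or 3 or IR library 1 or 2 (up to 0.111). Of 24 targets of the antioxidant factor NRF2 only Srxn1 rose, a count near that share. Srxn1 (mm10 chr2:152105516-152111376), sulfiredoxin, read 1482, 1423 and 1381 in sham and 7980.4, 8213 and 7868 in IR kidneys and rose 5.61-fold (log2 change 2.49 ± 0.12 SE, limma adjusted p = 5.94e-05), with nearly equal libraries within each group. Nqo1, a standard NRF2 target, read 1602, 1388 and 1555 in sham and 1283, 1292 and 868 in IR kidneys, and Hmox1, haem oxygenase, read 5973, 6549.5 and 9907 in sham and 16217, 8356 and 9699 in IR kidneys. Neither was called. The metallothionein genes Mt1 and Mt2 read 5138, 3698 and 3991 and 2245, 1431 and 1568 in sham and 13248, 12387 and 10084 and 6794, 6068 and 5125 in IR kidneys, rises of 2.79-fold (log2 change 1.48 ± 0.17 SE, limma adjusted p = 0.00308) and 3.47-fold (log2 change 1.80 ± 0.19 SE, limma adjusted p = 0.00187). They are the 2 called of 7 metallothionein and zinc carrier genes, also 2 of 7 without IR library 3. They are close copies, and Mt2 shares 73.5% of its length with Gm45774 on the opposite strand. Of 28 hypoxia and glycolysis genes 2 rose, Slc2a1, the glucose carrier GLUT1, at 1.94-fold and Adm, adrenomedullin, at 2.10-fold, and both lost their calls without sham library 2, IR library 1 or IR library 2, Slc2a1 also without sham library 3 (up to 0.162). The median of that list was 0.08. Leaving out IR library 3, 7 rose and 1 fell of the p53 list, 6 of the NRF2 list rose, and 3 rose and 1 fell of the hypoxia list. With sham library 2 left out as well, 2 of the NRF2 list rose.

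Genes of fatty acid oxidation were the group in which most falls were counted. Of 33 measured members 11 fell and none rose, against 0.793% of all genes lower, and the median log2 change was −0.59. Cyp4a14 (mm10 chr4:115486200-115496142), a fatty acid hydroxylase and a standard PPARa target, read 6149, 9037 and 11189 in sham and 1199, 1336 and 1050.5 in IR kidneys. It was lower by 7.17-fold (log2 change −2.84 ± 0.21 SE, limma adjusted p = 0.00042), and the groups lay well apart. Cpt1a, which gates entry of fatty acids into mitochondria, read 17147, 23269.5 and 26530.0 in sham and 10629, 10050.3 and 12392 in IR kidneys, lower by 2.0-fold (log2 change −1.0 ± 0.19 SE, limma adjusted p = 0.0268). Other members called were Abhd15 at 3.81-fold lower, Acot1 at 2.28-fold, Cyp4a10 at 2.05-fold, Cyp4a31 at 2.02-fold, Cpt2 at 1.88-fold, Rxra, the partner of PPARa, at 1.74-fold, and Slc25a20, the carnitine carrier, at 1.69-fold. Abhd15 shares 43.0% of its length with Gm10392 on the opposite strand, so reads of that pair cannot be told apart. The Cyp4a genes are close copies, so that reads may be split among them. All of these except Cyp4a14 lost their calls without sham library 3, and also without 1 or more of sham libraries 1 and 2 and IR libraries 1 and 2 (adjusted p up to 0.238 by limma, for Rxra). Ppara itself read 3117, 2164 and 3119.5 in sham and 2256, 2255 and 2729.6 in IR kidneys and Ppargc1a, the coactivator of oxidative genes, read 1527, 1723 and 1737 in sham and 1038, 1326 and 1096 in IR kidneys. Neither was called, although the groups of Ppargc1a did not overlap. Creb3l3, a liver and kidney factor that acts with PPARa, is in no list here and was among the largest falls, from 46.2, 122 and 120.4 to 10.4, 6.50 and 4.33, lower by 11.6-fold (log2 change −3.53 ± 0.46 SE, limma adjusted p = 0.00551). Without IR library 3, 15 of 33 fell.

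Of 13 gluconeogenesis genes 2 fell (median −0.31). G6pc (mm10 chr11:101367561-101377903), which releases free glucose, read 27808, 49842 and 55904 in sham and 8553, 7665 and 7275 in IR kidneys and was lower by 5.46-fold (log2 change −2.45 ± 0.25 SE, limma adjusted p = 0.00162). Pck1, the committing enzyme, read 163869, 165583 and 206068 in sham and 63046, 78987 and 64373 in IR kidneys and was lower by 2.59-fold (log2 change −1.37 ± 0.21 SE, limma adjusted p = 0.0102). Its call ended without sham library 3 or IR library 1 (up to 0.0698). Of 24 targets of insulin, IGF and FOXO signals 3 fell (median −0.36). Igfbp1, a secreted IGF carrier, read 1912, 9393 and 7745 in sham and 902, 801 and 499 in IR kidneys and was lower by 7.27-fold (log2 change −2.86 ± 0.53 SE, limma adjusted p = 0.0234). Sham library 1 was the nearest to the IR libraries, and the log2 change was −3.58 without it, while the call ended without sham library 2 or 3 or IR library 1 or 2 (up to 0.133) and without the 2 libraries highest in Malat1 (−2.18, adjusted p = 0.0519 by limma). Eif4ebp3, a brake on translation, fell 7.62-fold (limma adjusted p = 0.00353), and 67.3% of its length is shared with AC115631.1 on the same strand. Klf15, a fasting and glucocorticoid factor, read 4038, 4047 and 4352 in sham and 2185, 2441 and 1709 in IR kidneys and fell 1.98-fold, a call that ended without sham library 2 or 3 (up to 0.0847). None of 13 glucocorticoid genes was called (median −0.38). Fkbp5, a standard glucocorticoid target, read 7986, 8401 and 8948 in sham and 5372, 5855 and 6836 in IR kidneys, and the groups did not overlap. In the fit without IR library 3, the counts were 4 of 13, 9 lower with 1 higher of 24, and 3 of 13. With sham library 2 left out as well, 4 of the 24 were lower and 1 was higher.

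Single genes of other pathways passed in lists whose medians were near 0. Of 21 genes of NAD, uridine and kynurenine metabolism 1 fell and 2 rose (median −0.05). Upp2, a uridine phosphorylase, read 2081, 2254 and 3468 in sham and 245, 345 and 185 in IR kidneys and was lower by 10.1-fold (log2 change −3.34 ± 0.26 SE, limma adjusted p = 0.000434), and Upp1, its paralog, rose 1.96-fold. Nmrk1, a nicotinamide riboside kinase, read 143, 150.1 and 488 in sham and 972, 917 and 1048 in IR kidneys and rose 4.45-fold, with sham library 3 nearest to the IR level. The calls of Upp1 and Nmrk1 ended without sham library 1 or 2 or IR library 1 or 2, and that of Upp1 also without sham library 3 (up to 0.188 and 0.111), and that of Nmrk1 also without the 2 libraries highest in Malat1 (0.0604). Of 18 vitamin D, calcium and phosphate genes 1 rose and 2 fell (median 0.00). Cyp27b1, which makes active vitamin D, read 315, 428 and 211 in sham and 35.3, 31.4 and 42.2 in IR kidneys and was lower by 8.27-fold (log2 change −3.05 ± 0.28 SE, limma adjusted p = 0.00105). Cyp24a1, which degrades it, read 2125, 2205 and 3936 in sham and 1407, 1082 and 883 in IR kidneys and fell 2.39-fold, a call lost without sham library 2 or 3 or IR library 1 or 2 (up to 0.14). Slc20a1, a phosphate carrier found in most cells, rose from 1198, 1461 and 1164 to 5031, 5030.0 and 5679, a rise of 4.13-fold (log2 change 2.05 ± 0.14 SE, limma adjusted p = 0.000237). Ch25h, which makes 25-hydroxycholesterol, read 23.1, 25.2 and 20.6 in sham and 334, 274 and 299 in IR kidneys and rose 12.7-fold (log2 change 3.66 ± 0.21 SE, limma adjusted p = 8.5e-05). In the same list of 22 cholesterol genes Mylip, a ubiquitin ligase, fell 2.08-fold, a call lost without sham library 3 (limma adjusted p = 0.0521). Of 19 clock genes only Ciart fell, at 1.77-fold, and that call ended in most alternatives (adjusted p up to 0.206 by limma). Leaving out IR library 3, 7 of the 19 clock genes were lower, with a median of −0.45, against 5.99% of all genes lower in that fit. With sham library 2 left out as well, 2 of the 19 were lower (median −0.37), against 2.27% of all genes. The fit without IR library 3 alone gave 2 higher and 1 lower of the 21 NAD genes, 2 and 2 of the 18 vitamin D genes, and 3 and 2 of the 22 cholesterol genes.

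**Figure D4:**
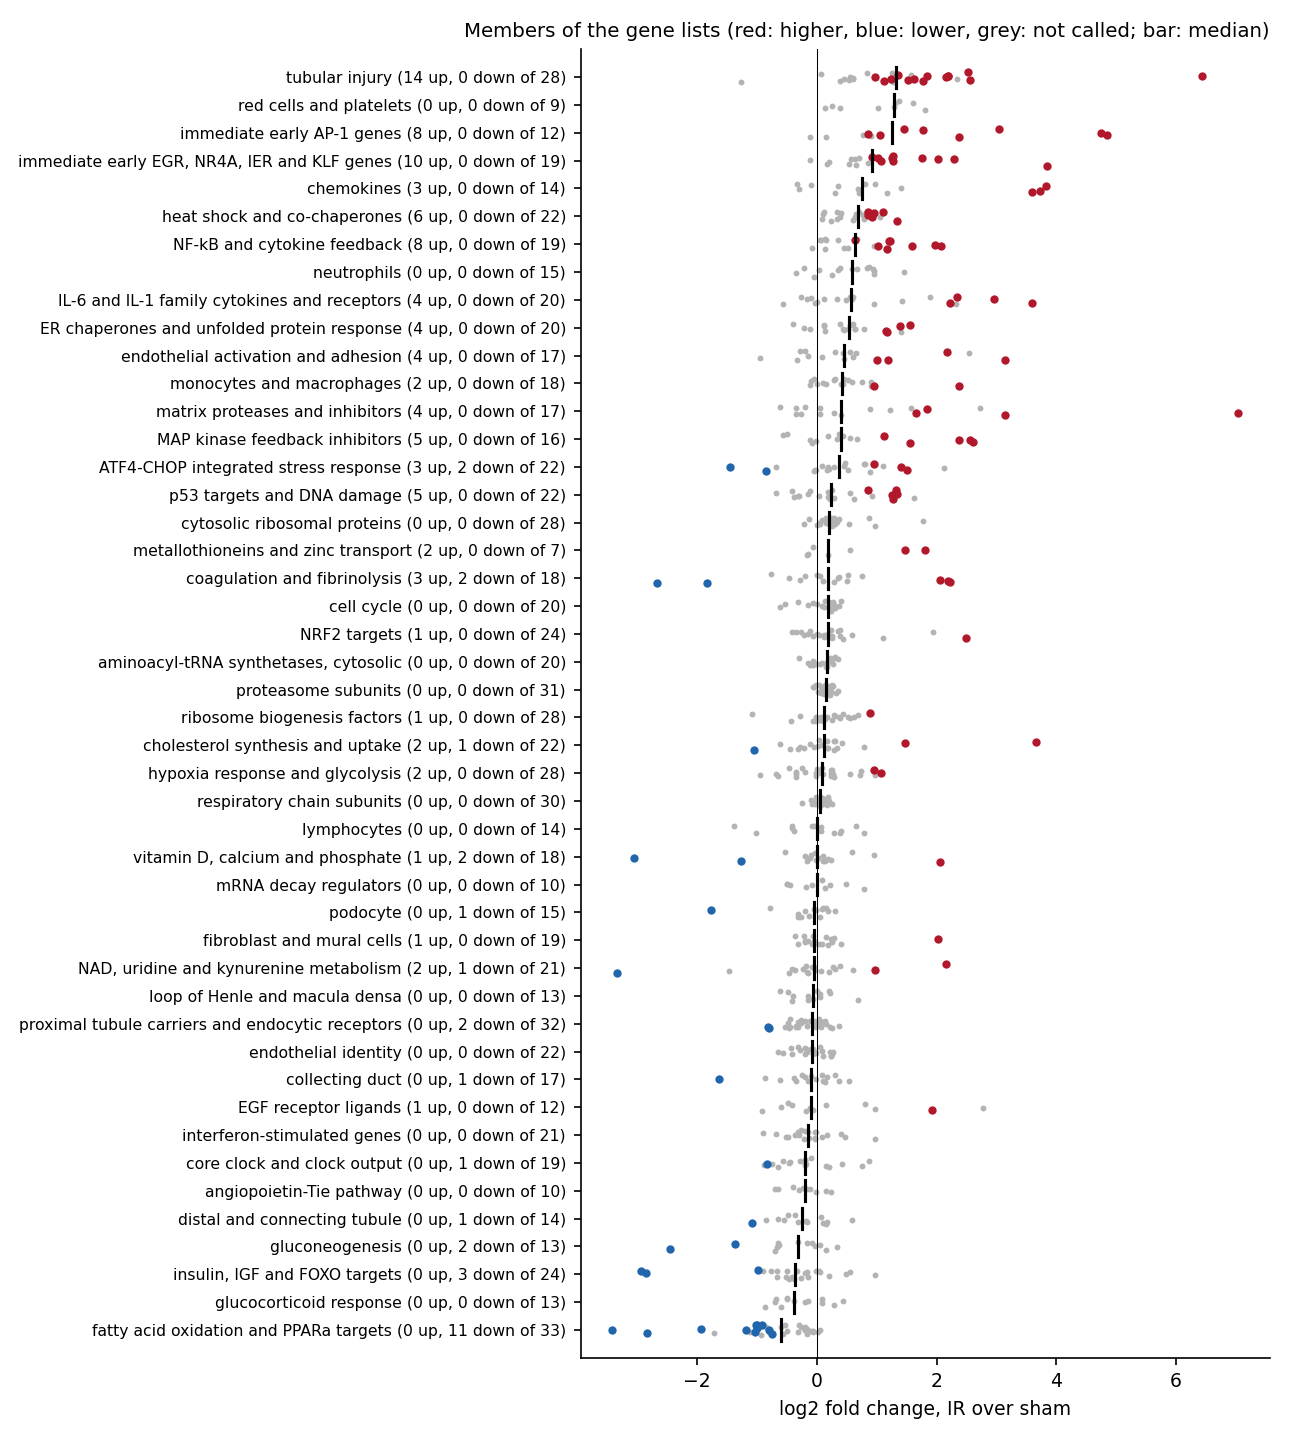
Each member of the 46 gene lists by its log2 change, IR over sham, with genes called higher in red, called lower in blue and not called in grey; the bar is the median of the list, and lists are ordered by it. Tubular injury stands at the top with a median of 1.32 and fatty acid oxidation at the bottom with −0.59.

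Few markers of the nephron segments were called with all libraries, and few of all genes were, 2.71% in either direction and 0.793% lower. In the proximal tubule list 2 of 32 carriers and receptors fell (median −0.08), among them Slc16a9 at 1.74-fold. Its call ended without any 1 of the 5 libraries other than IR library 3 (limma adjusted p up to 0.189). Slc34a1, the phosphate carrier that defines the segment, read 103394, 103634 and 111819 in sham and 100668, 93882 and 102753 in IR kidneys, and Lrp2, the endocytic receptor megalin, read 69559, 135521 and 134927 in sham and 55193, 63264 and 120939 in IR kidneys. The groups of Slc34a1 did not overlap, with IR lower, as was true of 10% of all genes tested, and it was not called. Those of Lrp2 overlapped, and Lrp2, a very long transcript, was lowest in the 3 libraries lowest in Malat1. In the loop of Henle 0 of 13 were called (median −0.07), and Umod, uromodulin, read 72858, 67522 and 75966 in sham and 65602, 84651 and 58431 in IR kidneys. In the distal tubule 1 of 14 fell, Klhl3, which tags WNK kinases for decay, at 2.13-fold. In the collecting duct 1 of 17 fell, Hmx2 at 3.09-fold, and Aqp2, its water channel, read 6914, 4837 and 7240.5 in sham and 7548, 6065 and 4359 in IR kidneys. Klhl3 and Hmx2 both lost their calls without sham library 2 or 3 or IR library 2, Klhl3 also without IR library 1 (up to 0.103 and 0.0911). Of 15 podocyte genes 1 fell. Nphs1, nephrin of the slit diaphragm, read 466, 363 and 559.9 in sham and 499.8, 547 and 502 in IR kidneys, with overlap. In the fibroblast and mural list 1 of 19 rose, Cyr61, a matrix protein induced by stretch, from 633, 446 and 649 to 2912, 2426 and 1765, a rise of 4.08-fold (log2 change 2.03 ± 0.22 SE, limma adjusted p = 0.00189). When IR library 3 was dropped, 3 of the 32 proximal tubule genes were lower, 1 of the 13 loop of Henle genes was higher, 1 of the 14 distal genes was higher and 4 were lower, 3 of the 17 collecting duct genes were higher and 2 lower, and 2 of the 15 podocyte genes were lower. In the fibroblast and mural list the count was again 1 higher of 19. Over all genes that fit gave 5.79% higher and 5.99% lower.

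None of 28 cytosolic ribosomal proteins, 31 proteasome subunits, 30 respiratory chain subunits, 20 cell cycle genes or 21 interferon-stimulated genes was called, with medians of 0.21, 0.15, 0.06, 0.19 and −0.15, where 2.71% of all genes tested were called, so that a count of 0 in lists of this size is near the background. Of 28 ribosome biogenesis factors Nop58 rose, at 1.85-fold, a call lost without sham library 2 or 3 or IR library 1 or 2 (up to 0.153) and with the trend in transcript length removed (0.0635). With IR library 3 left out, 5 ribosomal protein and 4 proteasome genes passed, all higher, 1 interferon-stimulated gene passed, lower, and 4 ribosome biogenesis factors were higher and 1 lower, with no call in the respiratory chain and cell cycle lists. With sham library 2 left out as well, 1 ribosomal protein gene and 0 proteasome genes passed. The summed counts of the respiratory chain were 256818 to 318115 in sham and 226020 to 345894 in IR kidneys, with IR library 3 the lowest.

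The gene with the largest fall by fold was Mfsd4b5 (mm10 chr10:39958061-39986646), of the Mfsd4b family of membrane carriers, at 1978, 1384 and 1731 in sham and 129, 123 and 95.2 in IR kidneys. It was lower by 14.5-fold (log2 change −3.86 ± 0.19 SE, limma adjusted p = 5.94e-05), and no library came near the other group. It belongs to a cluster of close copies and shares 4.7% of its length with Mfsd4b3 on the same strand, so the assignment of its reads is uncertain. Among the largest rises outside the lists were Emp1, a membrane protein of epithelia, from 774, 566 and 563 to 5897, 4363 and 2854, a rise of 6.67-fold (log2 change 2.74 ± 0.25 SE, limma adjusted p = 0.00106), Sh3bp2, a signalling adaptor, at 6.05-fold, and Sfn, 14-3-3 sigma, at 6.32-fold. Eps8l3 rose 8.36-fold with 42.4% of its length shared with a gene on the opposite strand, and its log2 change was 2.47 without the 2 libraries highest in Malat1. Of the genes that gained most reads, Ezr, which links actin to the brush border, went from 8674, 8918 and 9822 to 14164, 15544 and 16022 (1.67-fold), Defb1, a defensin of tubule epithelium, from 2884, 2638 and 2257 to 9668, 9707 and 6572 (3.30-fold), and Rcan1, a calcineurin inhibitor, from 3214, 1526 and 1942 to 7382, 8172 and 6881 (3.52-fold). Among those that lost most were Ctsl, a lysosomal protease, from 23529.9, 28808 and 47215 to 14067, 12724 and 10429.5, Glul, glutamine synthetase, from 18828, 26374 and 28083 to 9071, 11251 and 11838, and Tmem252, from 18917, 27771 and 31675 to 13385, 12916 and 8858. Sfn lost its call without sham library 3 or IR library 2 and Rcan1 without sham library 3 (adjusted p = 0.0863 and 0.0521 by limma). Ezr, Ctsl, Glul and Tmem252 lost theirs without sham library 2 or 3 or IR library 1 or 2 (up to 0.187), and Ezr also without sham library 1. Hpdl and Kcnip3, at 3.97-fold and 3.62-fold lower, did so without sham library 2 or 3 or IR library 1, and Hpdl also without sham library 1 or IR library 2 (up to 0.17). Without the 2 libraries highest in Malat1 the adjusted p of Kcnip3 was 0.0604 and that of Tmem252 was 0.0535 by limma.

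Whether these changes differed from those of control kidneys was tested as the difference of both responses, each taken within its own table. In controls 1216 of 16257 genes rose (7.48%) and 654 fell (4.02%) by limma. For the difference, 0 of 16339 genes passed, and 435 (2.66%) fell under 0.05 before adjustment. A p that misses the threshold does not show that the responses were alike. Of the 315 genes that rose, 91 had a larger change than in controls, and of the 130 that fell, 69 had. The same share was not counted over all genes. These genes were picked by their call in VE-PTPiKO, where IR library 3 was the lowest IR library for 160 of the 315. The counts therefore do not show a weaker or stronger response in either genotype. Mfsd4b5 read 1726, 1536 and 109.5 in control sham and 2067, 2099 and 1697 in control IR kidneys. The difference of its responses was −5.41 ± 1.03 SE (limma adjusted p = 1), and control sham library 3 lay at the level of VE-PTPiKO IR kidneys. Without that control library it was the 1 gene that passed (adjusted p = 1.83e-05 by limma). Fgg changed by −1.83 on the log2 scale here and by −0.48 in controls (difference −1.35 ± 0.45 SE), and Hspa1a by 1.11 and 2.06 (−0.95 ± 0.32 SE), each with a limma adjusted p of 1. For Krt20 the changes were 6.44 and 6.55, for Cyp4a14 −2.84 and −2.70, and for Ptprb −0.65 and −0.62.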

How the data were processed

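RNA of whole kidneys was measured by bulk RNA-seq, with RNA extracted by Trizol and libraries made by a TruSeq kit, per the labels' protocols. The authors used FastQC, STAR, HTSeq and DESeq2 on mm10, per the submitters' processing notes. Their versions are not given in the sources used here. The strand setting and the gene annotation are not given in the sources used here. The authors deposited a table for each genotype, whose library columns hold normalised signal, from the values each gene's reads over the size factor of its library (0.9235 to 1.2125 in VE-PTPiKO). Multiplying back gave whole reads for 100.0% of the deposited values within a tolerance of 0.02, 15427887 to 21296392 per library. The log2 fold changes, Wald scores and adjusted p-values of the authors' deposited table served only for a count. Those of VE-PTPiKO in the authors' deposited table marked 1552 genes significant, 882 higher and 670 lower after IR. Of 23493 lines, repeats of 182 identifiers with identical values were dropped, leaving 23286 genes.

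The main test was limma 3.58.1 with a mean-variance trend. It took log2(value + 1) of each gene whose mean reached 1, in the 3 sham and 3 IR libraries of VE-PTPiKO only. Benjamini-Hochberg adjusted p under 0.05 over all genes was the threshold. Fold changes are on the log2(value + 1) scale, which understates the change of low genes. Differences between genotypes were tested in limma over 12 libraries, each in its own table's scaling. Alternatives were TMM, other filters and pseudocounts (0.5 and 5), edgeR 4.0.16 and DESeq2 1.42.0 on the recovered reads, a replicate block, each library left out, both libraries highest in Malat1 left out, and removal of a trend on transcript length. The limma, edgeR and DESeq2 fits were tested on simulated counts. Gene positions and overlaps came from GENCODE on the mm10 build, and start windows from RefSeq on GRCm38.p6.

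In the 46 gene lists 897 of 903 entries matched a gene (875 distinct genes). Named genes were the 15 largest rises and 15 largest falls among genes called with groups apart and a mean value of at least 50, the 10 largest rises and falls in reads, up to 4 members per list, genes at 0 in sham, and Ptprb, Tek, Tie1, Angpt1, Angpt2, Havcr1, Lcn2 and Malat1. Other genes called in a list, defining markers and the genes under Other observations were named after their values were seen. The comparison, the lists and the libraries left out together were chosen with earlier results of these data known. Some named genes are not reported here, and the 2 single-cell samples were not analysed here.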

Additional observations from a re-analysis of the deposited data

How the results depend on the processing

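The main counts were 445 genes called, 315 higher and 130 lower. DESeq2 called 1013 (622 and 391), and edgeR called 456 (330 and 126). Leaving out each library in turn gave between 126 and 1925 genes called, 108 to 946 higher and 18 to 979 lower. The lowest counts came without sham replicate 3 and the highest without IR replicate 3. The counts without sham replicate 2, IR replicate 1 and IR replicate 2 were 170, 194 and 168. Without sham replicate 2 and IR replicate 3 together 853 genes were called (484 and 369), and with the trend on transcript length removed 871 (568 and 303). The cause of these differences was not tested. TMM, other filters and other pseudocounts gave 426 to 458. The replicate numbers did not pair the samples. Same-numbered libraries had correlations of deviations of 0.57, −0.38 and 0.19, and sham replicate 2 correlated best with IR replicate 3, at 0.53. With the number as a block 604 genes were called, 376 higher and 228 lower.

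Of the 110 named genes called, 59 were called under every alternative run, and the fewest kept their call without sham replicate 3, 61. No called gene changed direction. Of named genes not called, the log2 difference of Angpt1 was 0.00 without IR replicate 3, and leaving out each library gave −0.23 to 0.00. That of Malat1 was −0.32 without sham replicate 1, −0.63 without IR replicate 3 and −0.18 without the 2 libraries highest in it, and ran from −0.63 to 0.56 over single libraries left out. That of Tek was 0.01 by edgeR, 0.08 without IR replicate 1, 0.02 without IR replicate 3, 0.03 without the 2 libraries highest in Malat1 and 0.03 with the length trend removed, and ran from −0.16 to 0.08 over single libraries left out. The difference between genotypes called 0 genes in all alternatives run except 1 gene, Mfsd4b5, without control sham replicate 3. Transcripts with a few reads per library are limited by depth.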

Other observations

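The lists used above leave out 322 of the 445 genes that passed, and 3 groups among them were picked after their values were seen, so their counts support nothing. The first is of stored fat and its use. Plin5, which coats lipid droplets in oxidative cells, read 458, 546 and 787 in sham and 208, 199 and 187 in IR kidneys and was lower by 2.93-fold (log2 change −1.55 ± 0.21 SE, limma adjusted p = 0.00628). Pnpla2 and Lipe, the lipases that empty the droplet, fell 2.19-fold and 1.91-fold, and Gpam and Lpin1, which build triglyceride, fell 2.16-fold and 1.84-fold. Pex11a, which divides peroxisomes, fell 2.03-fold, and Pdk2, a kinase that holds back pyruvate dehydrogenase, 1.99-fold. Plin5 and Pex11a were called whichever library was left out, and the others lost their calls without at least sham library 3 (limma adjusted p up to 0.17, for Gpam).

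The second group holds junction, integrin and skeleton genes of epithelia. Epha2, an ephrin receptor, read 698, 552 and 648 in sham and 2116, 2729 and 2536 in IR kidneys and rose 3.88-fold (log2 change 1.96 ± 0.15 SE, limma adjusted p = 0.000434). The integrin genes Itgb6 and Itga6 rose 3.46-fold and 2.40-fold. Tubb6, a tubulin, and Lmna, the nuclear lamin, rose 4.17-fold and 3.11-fold. Cldn4 and Cldn1, claudins, rose 3.38-fold and 2.25-fold and lost their calls without sham library 2 or 3 or IR library 1 or 2 (adjusted p up to 0.17 by limma). Cldn14, the claudin that limits calcium recovery in the thick ascending limb, went the other way, from 61.9, 32.6 and 131 to 4.15, 5.41 and 4.33, lower by 11.7-fold (log2 change −3.54 ± 0.48 SE, limma adjusted p = 0.00653).

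The last group is of cilia, at low levels. Foxj1, the factor that starts motile cilia, read 6.60, 6.53 and 3.09 in sham and 29, 59.6 and 20.6 in IR kidneys and rose 5.52-fold (limma adjusted p = 0.0288). Rsph4a, a part of the motile axoneme, read 1.65, 6.53 and 5.15 in sham and 19.7, 33.6 and 18.4 in IR kidneys, and Mlf1 and Tppp3 rose 4.92-fold and 3.25-fold. All 4 lost their calls without sham library 2 or 3 or IR library 1 or 2 (up to 0.208).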
